A study of Mus musculus with 10 samples.

Results

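The genes examined here are 10 genes of smooth muscle and of stress fibres, the contractile actin bundles of spreading and pulling cells: Acta2, Tagln, Cnn1, Cnn2, Myl9, Tpm1, Tpm2, Flnc, Fhl3 and Parvb. They were taken by name. All probe sets annotated to 1 of these symbols were used, 20 of the 45101 on the array, and 19 of the 20 passed a filter on low signal, so that all 10 genes stood among the 12207 tested. The data are 10 Affymetrix Mouse Genome 430 2.0 arrays, 2 for each of 5 mouse cell populations isolated by sorting. The iPGCs, germ cell-like cells obtained in culture, and the somatic cells were sorted from hanging-drop embryoid bodies (EBs) at day 6 of differentiation. Oct4-Gfp iPGCs were Oct4-Gfp+/cKit bright cells of a reporter line of mixed genetic background, and Oct4-Gfp somatic cells lacked both markers. V6.5 iPGCs were SSEA1+/cKit bright cells of the 129xBL6 F1 line V6.5, which carries no reporter, and V6.5 somatic cells lacked SSEA1 and cKit. ESCs were undifferentiated SSEA1+/cKit+ V6.5 cells kept on mouse embryonic fibroblasts. No ESC array of the Oct4-Gfp line was analysed, and line and sorting gate differ together between the iPGC groups, so that these cannot be told apart. The somatic groups are defined by what they lack and can hold several cell types. The labels do not say whether the 2 arrays of a group came from separate cultures, so the p-values measure only the spread between these arrays.

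Stress fibres are bundles of actin filaments and non-muscle myosin that are anchored at focal adhesions. In smooth muscle the same machinery uses its own actin, calponin, transgelin, tropomyosin and myosin light chain genes. Many of these genes are textbook targets of serum response factor (SRF), which binds a DNA element called the CArG box together with coactivators of the myocardin family (Myocd, Mrtfa, Mrtfb) that respond to the state of the actin pool. In mouse embryos, Acta2 and Tagln also come on transiently in the heart and somites, so they are not exclusive to smooth muscle.

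The genes lie on 7 chromosomes, and 9 of the 10 matched the RefSeq promoter table of build GRCm38.p6, with 10 start sites; Tagln did not match. The 250 bases before each start were searched on both strands for the CArG box. An exact CArG box stood in 1.47% of all 32851 promoter windows of this length and in those of 2 of the 9 genes, Cnn2 and Myl9. When 1 letter other than A or T was allowed in the central run, 8.59% of all windows and those of 4 of the 9 genes (Acta2, Cnn2, Flnc and Myl9) held a match. The 30 bases around each match are shown because the match is the sequence feature that these members share. Capitals mark the CArG matches; those of Flnc and Acta2 and the proximal one of Myl9 carry 1 other letter. They lie at chr2:156775293-156775322 and chr2:156775355-156775384 (Myl9), chr6:29432980-29433009 (Flnc) and chr10:79988534-79988563 (Cnn2), on the plus strand and outside the annotated gene, and at chr19:34255438-34255467 and chr19:34255388-34255417 (Acta2), on the minus strand and within the annotated gene, which reaches further upstream than the start site used.
Myl9, distal: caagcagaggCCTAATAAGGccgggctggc
Myl9, proximal: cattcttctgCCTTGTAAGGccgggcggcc
Flnc: tgtccctcatCCCTAAATGGctaagactag
Cnn2: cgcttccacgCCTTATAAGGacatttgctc
Acta2, distal: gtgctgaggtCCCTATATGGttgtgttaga
Acta2, proximal: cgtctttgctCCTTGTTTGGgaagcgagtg
CATTCC, a sequence bound by TEAD factors, occurred in 12.6% of all windows and in those of 3 of the 9 genes (Acta2, Flnc and Tpm1). TATAAA occurred in 12.4% of all windows and in none of the 9 genes. A match describes the letters and does not show binding.

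All 10 genes were lower in iPGCs than in the somatic cells of the same EBs, in both lines. The values are MAS5 signals on a linear scale, and changes are differences of log2(signal + 14.8) with their standard error, tested by limma with Benjamini-Hochberg adjustment over all 26368 probe sets; a gene is called at an adjusted p under 0.05. Fold differences are taken from these changes and are smaller than ratios of the signals where signals are low. Bounds, given as at least a fold, are ratios of signals without the added 14.8. In the Oct4-Gfp line all 10 genes were called lower in iPGCs than in somatic cells, where 24.7% of the 12207 genes tested were called lower, and none was called higher, against 25.7% of all genes. In the V6.5 line the counts were again 10 lower and 0 higher, against 24.1% and 27.2% of all genes. The median change of the 10 genes was -2.03 in the Oct4-Gfp line and -2.10 in the V6.5 line, where that of all genes was 0.04 and 0.08. Against ESCs, V6.5 somatic cells had 7 of the 10 genes higher and 0 lower, with 30.2% and 31.7% of all genes called in these directions. V6.5 iPGCs had 1 gene higher than in ESCs (Cnn2) and 3 lower (Cnn1, Fhl3 and Parvb), with 17.3% and 12.9% of all genes called higher and lower. The median change against ESCs was 1.51 in somatic cells and -0.48 in iPGCs, against -0.04 and 0.05 over all genes. Both V6.5 comparisons with ESCs share the ESC arrays, and the 2 V6.5 comparisons of iPGCs share the iPGC arrays, so their values are not independent. In sorted populations, fewer cells that express a gene and less RNA per cell cannot be told apart.

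**Figure D1:**
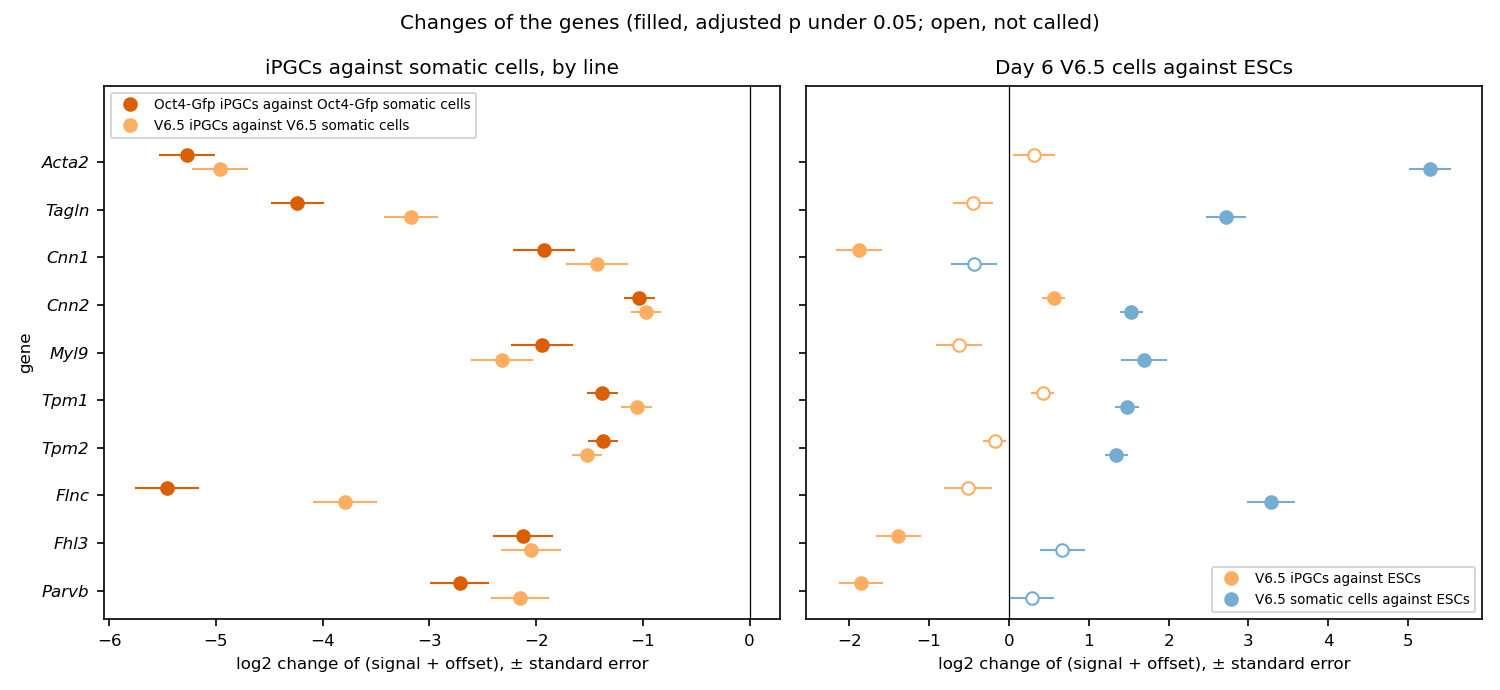
Change of each of the 10 genes (rows) as a difference of log2(signal + 14.8), with bars for the standard error, between iPGCs and somatic cells of each line (left) and between day 6 V6.5 cells and ESCs (right); filled points are called at adjusted p under 0.05. Cnn1 in Oct4-Gfp iPGCs was within background, and its point is a fitted value. On the left all 20 points lie below 0, between -5.46 and -0.97, and on the right somatic cells range from -0.44 to 5.28 and iPGCs from -1.87 to 0.56.

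Acta2 encodes smooth muscle alpha-actin, the actin of contractile smooth muscle cells and myofibroblasts. Its signal was 79.3 and 144 in Oct4-Gfp iPGCs, against 5306 and 4196 in Oct4-Gfp somatic cells. In the V6.5 line it was 209 and 266 in iPGCs, against 7892 and 7656 in somatic cells, and ESCs had 166 and 208. All iPGC arrays lay far below all somatic arrays, and the ranges of V6.5 iPGCs and ESCs nearly met. The change in iPGCs against somatic cells was -5.27 ± 0.26 in the Oct4-Gfp line (adjusted p = 6.55e-06) and -4.96 ± 0.26 in the V6.5 line (adjusted p = 7.56e-06). Somatic V6.5 cells stood 38.8-fold above ESCs (log2 change 5.28, adjusted p = 3.59e-06), and V6.5 iPGCs differed from ESCs by 0.32 ± 0.26 (adjusted p = 0.389, 95% interval -0.29 to 0.93). Among the 10 genes Acta2 had the largest change between somatic cells and ESCs. This probe set (1416454_s_at) carries the suffix that Affymetrix gives to probes shared among transcripts, so a part of the signal could come from a related actin.

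Tagln encodes transgelin (SM22 alpha), an actin-bundling protein used as an early marker of smooth muscle differentiation. Its signal was 56.3 and 45.9 in Oct4-Gfp iPGCs, against 1615 and 928 in Oct4-Gfp somatic cells. V6.5 iPGCs had 190 and 183, against 1617 and 1994 in V6.5 somatic cells and 246 and 276 in ESCs. The groups did not overlap, with the Oct4-Gfp iPGC arrays lowest, then V6.5 iPGCs, ESCs and the somatic cells. The change against somatic cells was -4.24 ± 0.25 in Oct4-Gfp iPGCs (adjusted p = 1.27e-05) and -3.17 ± 0.25 in V6.5 iPGCs (adjusted p = 4.31e-05). V6.5 somatic cells stood 6.58-fold above ESCs (adjusted p = 6.54e-05), and V6.5 iPGCs differed from ESCs by -0.45 ± 0.25 (adjusted p = 0.211).

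The calponins bind actin filaments and restrain myosin; Cnn1 is typical of differentiated smooth muscle, and Cnn2 is expressed more widely. Cnn1 was above the array median on 4 of the 10 arrays, whereas each other gene was above it on 8 or more. Its signal was 2.23 and 13.4 in Oct4-Gfp iPGCs, on both arrays within background (the 95th percentile of olfactory receptor probe sets), against 86.6 and 53.8 in Oct4-Gfp somatic cells. In V6.5 cells it was 32.7 and 21.0 in iPGCs, against 110 and 84.5 in somatic cells, and both ESC arrays read 136. ESCs thus had the highest Cnn1 signal of all groups, above every somatic array. Oct4-Gfp iPGCs stood at least 3.96-fold below Oct4-Gfp somatic cells (means 7.81 ± 7.89 and 70.2 ± 23.2, SD, n = 2 each), and the change in V6.5 iPGCs against V6.5 somatic cells was -1.43 ± 0.29 (adjusted p = 0.00467). Against ESCs, Cnn1 fell 3.66-fold in V6.5 iPGCs (log2 change -1.87 ± 0.29, adjusted p = 0.00392), and somatic cells differed by -0.44 ± 0.29 (adjusted p = 0.223). The plain ratio of mean Cnn1 signals in ESCs to V6.5 iPGCs was 5.07.

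Cnn2 took another course. Its signal was 2396 and 2493 in Oct4-Gfp iPGCs, against 5631 and 4465 in Oct4-Gfp somatic cells. V6.5 iPGCs had 2774 and 2740, against 5403 and 5439 in V6.5 somatic cells and 1891 and 1835 in ESCs. Both iPGC groups lay between ESCs and somatic cells, with no overlap. The change against somatic cells was -1.03 ± 0.14 in the Oct4-Gfp line (adjusted p = 0.000688) and -0.97 ± 0.14 in the V6.5 line (adjusted p = 0.000923). Cnn2 was the single member called higher in V6.5 iPGCs than in ESCs (1.48-fold, log2 change 0.56 ± 0.14, adjusted p = 0.0234). That call was lost without the low-signal filter (adjusted p = 0.0573) and without any 1 of the 4 V6.5 iPGC and ESC arrays, where the adjusted p lay between 0.0644 and 0.111 and the change between 0.54 and 0.58.

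Myl9 encodes a regulatory light chain of smooth muscle and non-muscle myosin, whose phosphorylation starts contraction. It had 147 and 168 in Oct4-Gfp iPGCs, against 849 and 491 in Oct4-Gfp somatic cells. It had 289 and 175 in V6.5 iPGCs, against 1171 and 1194 in V6.5 somatic cells and 334 and 379 in ESCs. Every iPGC array lay below both ESC arrays and all somatic arrays. The change against somatic cells was -1.94 ± 0.29 in Oct4-Gfp iPGCs (adjusted p = 0.00103) and -2.32 ± 0.29 in V6.5 iPGCs (adjusted p = 0.00041). V6.5 iPGCs differed from ESCs by -0.63 ± 0.29, which did not pass adjustment (adjusted p = 0.141), and V6.5 somatic cells stood 3.23-fold above ESCs (adjusted p = 0.00155).

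Tropomyosins lie along the actin filament and govern access of myosin to it; Tpm1 and Tpm2 produce the muscle forms as well as several forms of non-muscle cells. Tpm1, by the probe set with the highest mean, had 3344 and 3475 in Oct4-Gfp iPGCs, against 9525 and 8326 in Oct4-Gfp somatic cells. V6.5 iPGCs had 4537 and 3772, against 8436 and 8839 in V6.5 somatic cells and 2941 and 3238 in ESCs. Tpm2 had 2353 and 2697 in Oct4-Gfp iPGCs, against 6514 and 6599 in Oct4-Gfp somatic cells. V6.5 iPGCs had 2585 and 2162, against 6619 and 7029 in V6.5 somatic cells and 2585 and 2762 in ESCs. Both genes had somatic arrays far above all others, and Tpm2 had overlapping or touching ranges in iPGCs and ESCs. The changes against somatic cells were -1.38 ± 0.15 (Tpm1) and -1.37 ± 0.14 (Tpm2) in the Oct4-Gfp line, and -1.06 ± 0.15 (Tpm1) and -1.52 ± 0.14 (Tpm2) in the V6.5 line, each called. In V6.5 somatic cells Tpm1 stood 2.79-fold and Tpm2 2.54-fold above ESCs. V6.5 iPGCs differed from ESCs by 0.42 ± 0.15 for Tpm1 (adjusted p = 0.0659) and by -0.18 ± 0.14 for Tpm2 (adjusted p = 0.385).

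Flnc encodes filamin C, an actin cross-linker of muscle that links filaments to the membrane and the Z disc. It had 89.7 and 51.5 in Oct4-Gfp iPGCs, against 4554 and 2920 in Oct4-Gfp somatic cells. It had 415 and 264 in V6.5 iPGCs, against 4745 and 4820 in V6.5 somatic cells and 466 and 491 in ESCs. Oct4-Gfp iPGCs were lowest, V6.5 iPGCs lay just below ESCs, and both somatic groups were far above these. The change against somatic cells was -5.46 ± 0.30 in the Oct4-Gfp line (adjusted p = 9.83e-06), a 44.0-fold difference, and -3.79 ± 0.30 in the V6.5 line (adjusted p = 4.38e-05), a 13.8-fold difference. V6.5 somatic cells stood 9.73-fold above ESCs (adjusted p = 6.35e-05), and V6.5 iPGCs differed from ESCs by -0.51 ± 0.30 (adjusted p = 0.236). These values are from set 1447812_x_at. Set 1449073_at gave smaller differences from somatic cells, 10.8-fold (-3.43 ± 0.32) in the Oct4-Gfp line and 8.05-fold (-3.01 ± 0.32) in the V6.5 line. On that set the iPGC groups overlapped, with 48.8 and 19.3 in Oct4-Gfp iPGCs and 44.0 and 72.5 in V6.5 iPGCs.

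Fhl3 and Parvb had a different order of the groups, with ESCs near the somatic cells and iPGCs alone low. The paper names both genes as examples of a cluster found on these same arrays, enriched in ESCs and in somatic cells, but not in iPGCs. This order is therefore not an independent result. Fhl3, a four-and-a-half LIM protein found at stress fibres and focal adhesions, had 41.2 and 50.5 in Oct4-Gfp iPGCs, against 326 and 189 in Oct4-Gfp somatic cells. It had 65.7 and 89.0 in V6.5 iPGCs, against 305 and 434 in V6.5 somatic cells and 202 and 248 in ESCs. The 4 iPGC arrays were below all others, and the ESC arrays lay inside the range of the Oct4-Gfp somatic arrays. Parvb encodes beta-parvin, which joins integrin-linked kinase to actin at focal adhesions. It had 274 and 144 in Oct4-Gfp iPGCs, against 1610 and 1204 in Oct4-Gfp somatic cells. It had 305 and 262 in V6.5 iPGCs, against 1374 and 1239 in V6.5 somatic cells and 1085 and 1040 in ESCs. Both ESC arrays were close under the somatic arrays, and all 4 iPGC arrays were far below. Against ESCs, V6.5 iPGCs had Fhl3 lower by 2.61-fold (log2 change -1.38 ± 0.28, adjusted p = 0.0109) and Parvb by 3.62-fold (log2 change -1.86 ± 0.27, adjusted p = 0.00338). V6.5 somatic cells differed from ESCs by 0.67 ± 0.28 for Fhl3 (adjusted p = 0.0732) and by 0.29 ± 0.27 for Parvb (adjusted p = 0.39, 95% interval -0.34 to 0.93). The changes against somatic cells were -2.12 ± 0.28 (Fhl3) and -2.72 ± 0.27 (Parvb) in Oct4-Gfp iPGCs, and -2.05 ± 0.28 (Fhl3) and -2.15 ± 0.27 (Parvb) in V6.5 iPGCs. Single arrays decided calls of Fhl3: it was not called against ESCs in V6.5 iPGCs without ESC replicate 2 (adjusted p = 0.0692), and it was called in V6.5 somatic cells against ESCs without either Oct4-Gfp somatic array (adjusted p = 0.0387). Of 15 fibroblast markers tested, 4 were lower in V6.5 iPGCs than in ESCs (Lox, S100a4, Col1a2 and Thy1) and 2 were higher (Col1a1 and Pdgfra). Lox was within background in V6.5 iPGCs and V6.5 somatic cells and read 127 and 199 in ESCs, whereas Col1a1 read 347 and 461 in V6.5 iPGCs and 6508 and 6541 in V6.5 somatic cells, against 119 and 149 in ESCs. The summed signal of all 18 listed markers was 1308 to 1424 in V6.5 iPGCs, 25737 to 26017 in V6.5 somatic cells and 1561 to 1832 in ESCs. Whether fibroblasts from the feeder layer add to the ESC values of Cnn1, Fhl3 and Parvb was not tested.

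**Figure D2:**
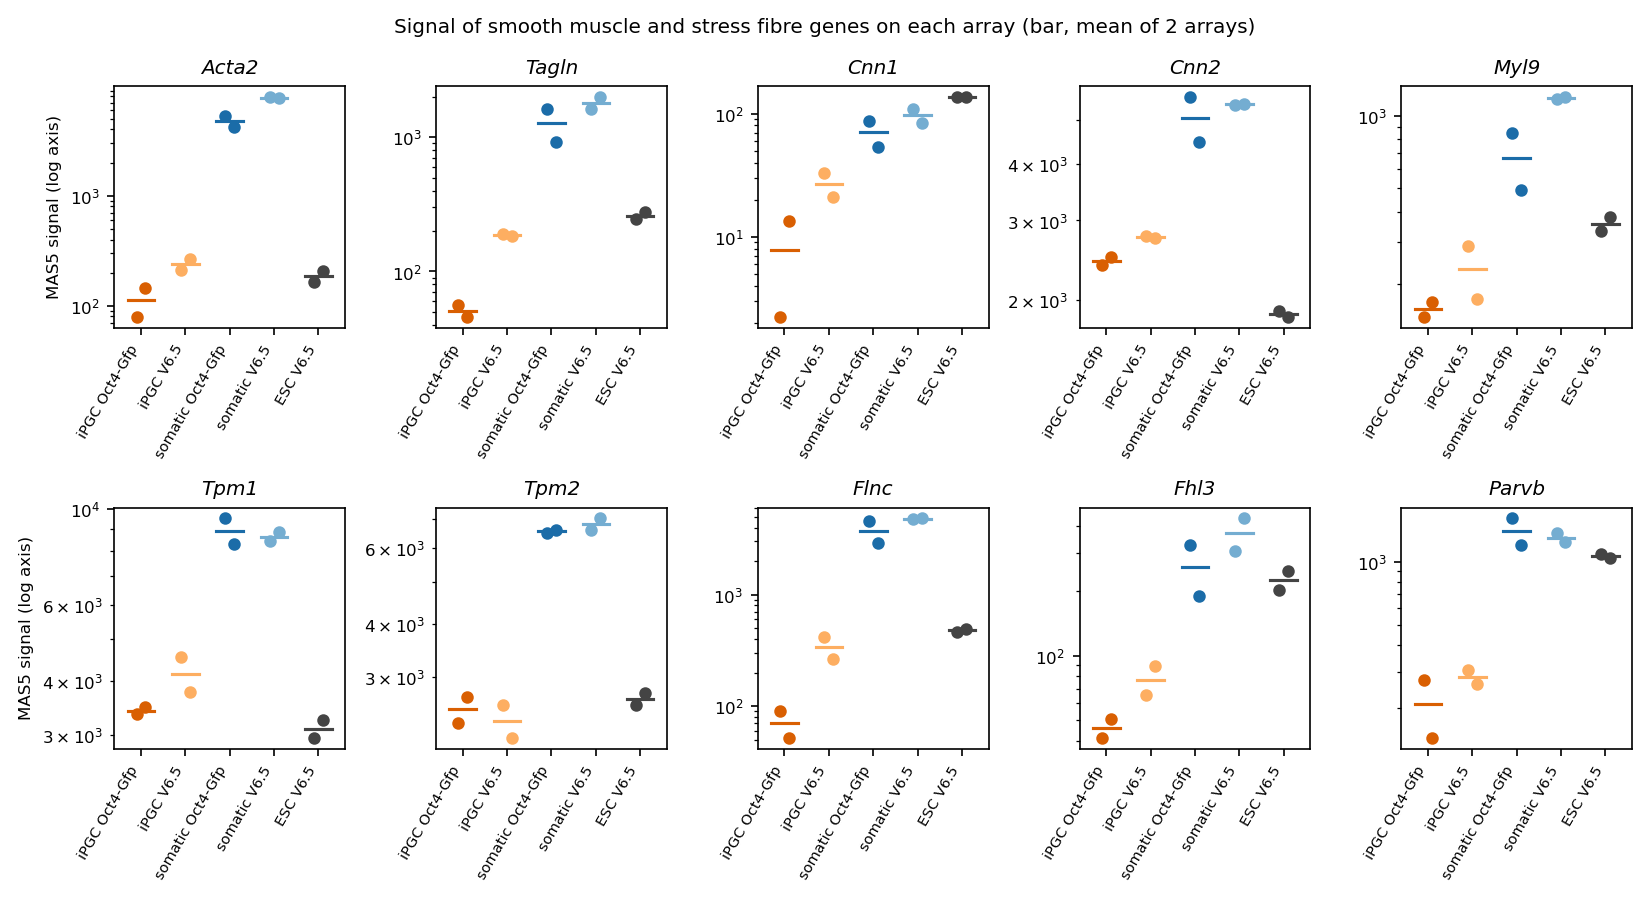
Signal of each of the 10 genes on each array (points, log axis, which differs between panels), with a bar at the mean of the 2 arrays of a group; groups run from Oct4-Gfp iPGCs at the left to ESCs at the right. Somatic arrays lie above iPGC arrays in every panel, and in the panels of Cnn1, Fhl3 and Parvb the ESC arrays (136 on both, 202 and 248, and 1085 and 1040) lie nearer to the somatic than to the iPGC arrays.

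Of the 10 genes, 5 had 1 probe set and the rest between 2 and 4. All 19 probe sets tested were called lower in iPGCs than in somatic cells in both lines. Of all 26368 probe sets tested, 7289 were called lower in the Oct4-Gfp line and 6125 in the V6.5 line. The 2 weaker sets of Acta2 lay within background on all 4 iPGC arrays and give only bounds there. For set 1456658_at, iPGCs stood at least 10.1-fold below somatic cells in the Oct4-Gfp line and at least 14.1-fold in the V6.5 line, and V6.5 somatic cells stood at least 17.3-fold above ESCs. For set 1444105_at, the bounds on iPGCs below somatic cells were 3.28-fold in the Oct4-Gfp line and 8.58-fold in the V6.5 line. The 2 sets of Parvb gave nearly the same fall in V6.5 iPGCs against ESCs (-1.86 ± 0.27 and -1.88 ± 0.26), and those of Flnc gave -0.51 and -0.65. The sets of Tpm1 disagreed: 1423721_at was called higher in V6.5 iPGCs than in ESCs (0.73 ± 0.21, adjusted p = 0.0357), 1423049_a_at had 0.42 ± 0.15 without passing, and 1456623_at had -0.41 ± 0.29 (adjusted p = 0.31). The last had 388 and 291 in V6.5 iPGCs, against 500 and 408 in ESCs. Another Tpm1 set, 1447713_at, was within background on all 10 arrays and was not tested. The 4 Tpm2 sets lay between -0.35 and 0.26 against ESCs, and none was called. Which transcript forms the sets of Tpm1 and Tpm2 detect was not examined.

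**Figure D3:**
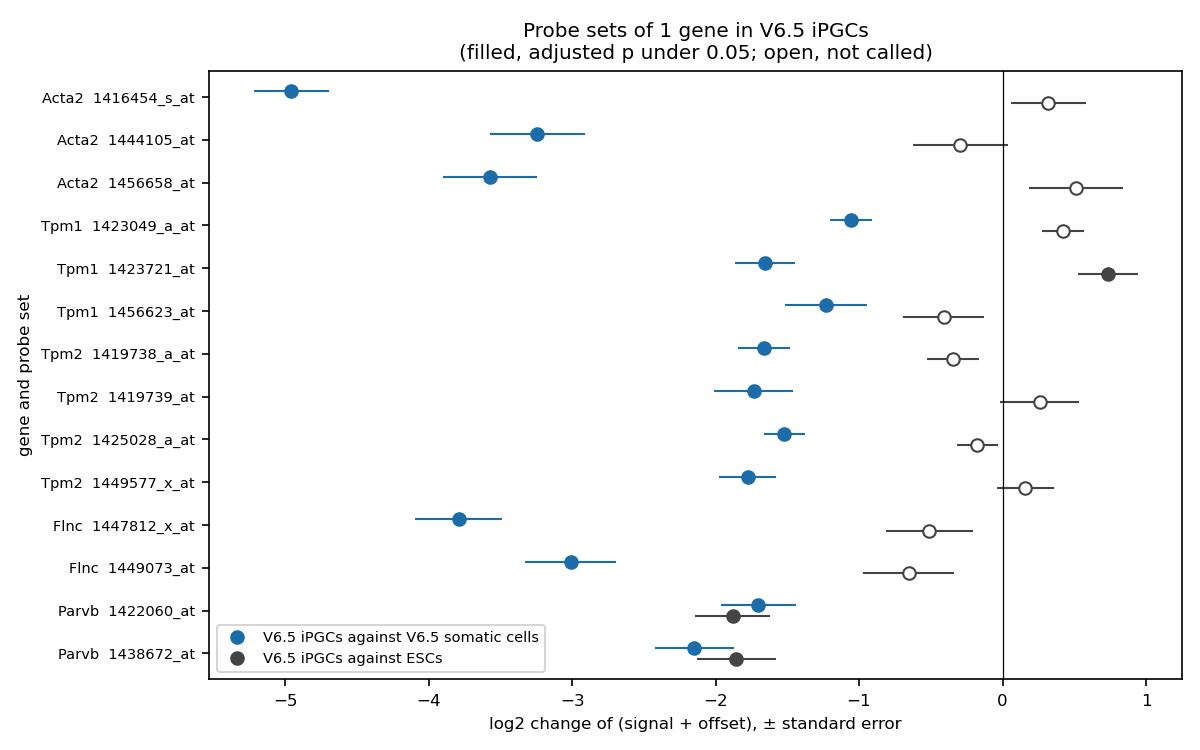
Change of every tested probe set (rows) of the genes with more than 1, as a difference of log2(signal + 14.8) with its standard error, in V6.5 iPGCs against V6.5 somatic cells and against ESCs; filled points are called. Acta2 sets 1444105_at and 1456658_at were within background in iPGCs, and their points are fitted values. All sets lie below 0 against somatic cells, whereas against ESCs those of Tpm1 run from -0.41 to 0.73 and both of Parvb lie near -1.9.

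The lines were then compared. The change of iPGCs against somatic cells was set in one line against the other: none of the 10 genes was called, and over all genes 0% were called higher and 0.00819% lower. At an unadjusted p under 0.05, 2 of the 10 genes differed, against 9.15% of all genes: Flnc, with -1.67 ± 0.43 in the Oct4-Gfp line relative to the V6.5 line (adjusted p = 0.3), and Tagln, with -1.07 ± 0.35 (adjusted p = 0.399). Between the iPGC groups themselves, none of the 10 was called, and 0% of all genes were called higher and 0% lower. Unadjusted, 4 of the 10 passed, against 20.0% of all genes, each lower in Oct4-Gfp iPGCs than in V6.5 iPGCs: Flnc (-2.06 ± 0.30, adjusted p = 0.0694), Tagln (-1.61 ± 0.25, adjusted p = 0.0694), Acta2 (-1.03 ± 0.26, adjusted p = 0.0993) and Cnn1, which was within background in Oct4-Gfp iPGCs and stood at least 1.52-fold lower there. The second Flnc set gave -0.62 ± 0.32, a smaller difference, and -0.42 ± 0.45 for the change of iPGCs against somatic cells between the lines. Between the somatic groups none of the 10 was called, while 0.0328% of all genes were called higher and 0.0410% lower in the Oct4-Gfp line. Unadjusted, 2 of the 10 passed, against 11.8% of all genes, namely Myl9 (-0.86 ± 0.29, adjusted p = 0.311) and Acta2 (-0.72 ± 0.26, adjusted p = 0.341). The iPGC calls depended on the variance model and on how probe sets were combined. With limma-trend, Acta2, Tagln and Flnc were called lower in Oct4-Gfp iPGCs (adjusted p = 0.0358, 0.012 and 0.00855), where 432 of all genes were called in either direction. With the mean over probe sets Tagln was called lower (adjusted p = 0.0424), where 56 of all genes were called. The ratio of 3' to 5' Gapdh probe sets, a sign of RNA length, was 2.02 and 2.37 in Oct4-Gfp iPGCs and 1.51 and 1.63 in V6.5 iPGCs, and 1.65 to 2.05 in somatic cells and 1.28 to 1.30 in ESCs; its part in these differences was not tested. With both iPGC lines averaged against ESCs, Tagln (-1.26), Myl9 (-0.87) and Flnc (-1.54) joined Cnn1, Fhl3 and Parvb among the genes called lower. Over all genes 5543 were then called in either direction. This average sets Oct4-Gfp iPGCs against V6.5 ESCs, so line and gate enter it. In V6.5 iPGCs alone the changes were -0.45 (Tagln), -0.63 (Myl9) and -0.51 (Flnc), none of them called.

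The relatives of the 10 genes were chosen after their values had been seen and are given as a description. Fhl1 and Fhl2 moved against Fhl3: in V6.5 iPGCs against ESCs, Fhl1 rose by 1.39 ± 0.15 and Fhl2 by 0.97 ± 0.26 on the log2 scale, whereas Fhl3 fell by 1.38. Fhl2 was above background on 1 of the 2 ESC arrays. Against V6.5 somatic cells, Fhl1 differed in V6.5 iPGCs by -0.10 ± 0.15 (not called), and Fhl2 was lower (-3.25 ± 0.26). Among the parvins, Parva rose in somatic cells against ESCs (3.81 ± 0.20) where Parvb had 0.29, and in V6.5 iPGCs against ESCs it had -0.26 ± 0.20 where Parvb fell by 1.86. Parva had 42.6 and 37.7 in Oct4-Gfp iPGCs and 118 and 82.0 in V6.5 iPGCs, against 129 and 113 in ESCs, and somatic arrays lay between 1161 and 2048. The cytoplasmic actins did not follow Acta2: Actb differed by -0.22 and Actg1 by 0.09 between V6.5 somatic cells and ESCs, with neither called. Cardiac actin, Actc1, was called higher in both V6.5 day 6 groups than in ESCs, by 1.71 ± 0.37 in iPGCs and by 3.98 ± 0.37 in somatic cells. It read 18.6 and 5.97 in ESCs, above background on 1 of the 2 arrays, and 113 and 43.2 in V6.5 iPGCs. Tagln3, the neuronal transgelin, ran opposite to Tagln and was 2.12 ± 0.25 higher in V6.5 iPGCs than in V6.5 somatic cells. Tagln2 was lower than in ESCs in V6.5 iPGCs (-1.10 ± 0.19) and in somatic cells (-0.60 ± 0.19). Cnn3 and Tpm3 were called in none of the 4 comparisons among cell types, whereas Tpm4 and Flna were higher in V6.5 somatic cells than in ESCs, by 1.24 ± 0.18 and 1.12 ± 0.16.

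**Figure D4:**
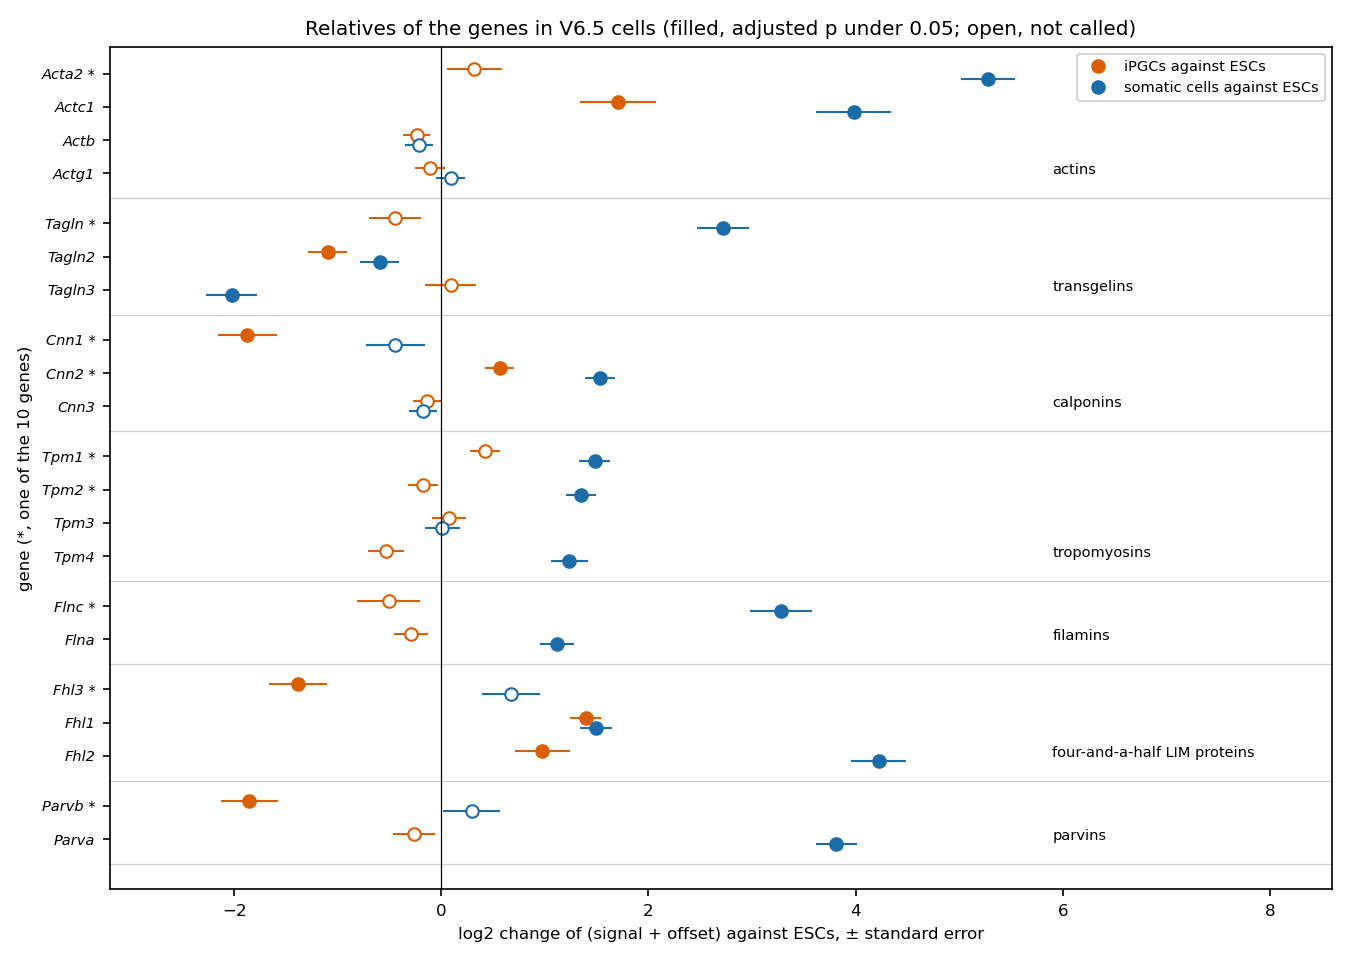
Change of the members (starred) and their relatives by gene family (rows), as a difference of log2(signal + 14.8) with its standard error, in V6.5 iPGCs and V6.5 somatic cells against ESCs; filled points are called. Fhl1, Fhl2 and Fhl3 lie at 1.39, 0.97 and -1.38 in iPGCs, and Parva and Parvb at 3.81 and 0.29 in somatic cells.

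Of the SRF and TEAD regulators, 12 were tested. In Oct4-Gfp iPGCs 0 were higher and 8 lower than in somatic cells, against 25.7% and 24.7% of all genes. In V6.5 iPGCs 1 was higher (Elk1, 0.62 ± 0.18) and 9 lower, against 27.2% and 24.1% of all genes. Myocd, the myocardin that drives smooth and cardiac muscle genes through SRF, had the largest change: it was 18.7 and 3.99 in Oct4-Gfp iPGCs, against 200.1 and 191 in Oct4-Gfp somatic cells, and 25.2 and 23.7 in V6.5 iPGCs, against 88.6 and 91.5 in V6.5 somatic cells. Its level was thus low in iPGCs of either line and highest in Oct4-Gfp somatic cells. Srf itself was lower in iPGCs than in somatic cells of the Oct4-Gfp line (-1.13 ± 0.20) and of the V6.5 line (-0.88 ± 0.20). Tead2 (-0.99 ± 0.14) and Tead3 (-0.99 ± 0.25), DNA-binding partners of the YAP and TAZ coactivators, were also lower in Oct4-Gfp iPGCs. Against ESCs, V6.5 iPGCs had Mrtfb (1.12 ± 0.23) and Elk4 (1.11 ± 0.19) higher and Tead4 (-0.90 ± 0.22) and Tead2 (-0.55 ± 0.14) lower. These were 2 of the 12 in each direction, near the 17.3% and 12.9% of all genes called higher and lower.

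Among 22 other actin filament genes, 1 was higher and 11 were lower in iPGCs than in somatic cells of each line. Caldesmon (Cald1), an actin and myosin linker, was lower in Oct4-Gfp iPGCs (-1.99 ± 0.20) and in V6.5 iPGCs (-2.43 ± 0.20), as was Csrp1, a LIM protein of actin bundles (-2.00 ± 0.13 in the Oct4-Gfp and -2.14 ± 0.13 in the V6.5 line). Actg2, the enteric smooth muscle actin, lay within background in both iPGC groups and in ESCs, and read 68.0 and 53.8 in Oct4-Gfp somatic cells and 170 and 91.3 in V6.5 somatic cells. In V6.5 iPGCs against ESCs none of the 22 was higher and 2 were lower, Tagln2 and Actn1 (-0.57 ± 0.13). Of 18 focal adhesion genes tested, 1 was higher (Tns3, 0.54 ± 0.14) and 12 lower in Oct4-Gfp iPGCs, and 0 were higher and 14 lower in V6.5 iPGCs. Tgfb1i1, the LIM adaptor Hic-5, was lower in Oct4-Gfp iPGCs (-4.59 ± 0.35) and in V6.5 iPGCs (-4.80 ± 0.35), next to Parva (-4.60 and -4.08) and Fhl2 (-3.53 and -3.25). In V6.5 iPGCs against ESCs, the fibronectin receptor subunit Itga5 was lower (-1.18 ± 0.15). The paper names Itga5 as an example of the same cluster as Fhl3 and Parvb, so its fall is not an independent result. Fhl1 and Fhl2 were the 2 of 18 that were higher than in ESCs.

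Markers of other cell types were counted in the same comparisons, and most, but not all, of those called against somatic cells were lower in iPGCs. Of 12 further smooth muscle markers 9 were tested, and 0 were higher and 7 lower in Oct4-Gfp iPGCs than in somatic cells, and 1 was higher (Synpo2, 1.19 ± 0.25) and 4 lower (Actg2, Cald1, Myocd and Des, the last with -2.28 ± 0.36) in V6.5 iPGCs. Actg2, Cald1 and Myocd were also counted in the lists above, so these counts overlap. Smooth muscle myosin heavy chain, Myh11, which defines mature smooth muscle, read 27.2 to 62.4 on all 10 arrays, with background at 12.6 to 25.4. Its mean was 45.9 in Oct4-Gfp iPGCs and 38.0 in Oct4-Gfp somatic cells. In the V6.5 line it was 52.6 in iPGCs and 41.9 in somatic cells, and the arrays overlapped in both lines. Kcnmb1 was within background in iPGCs and ESCs. The summed signal of the 12 markers was 2180 to 2418 in Oct4-Gfp iPGCs, 1915 to 2314 in V6.5 iPGCs, 7221 to 8248 in Oct4-Gfp somatic cells, 8140 to 8209 in V6.5 somatic cells and 1644 to 1731 in ESCs. Most of it came from Cald1 in iPGCs and somatic cells, whereas in ESCs Cald1 gave 798 to 805. Without this gene the sum was 604 to 842 in Oct4-Gfp iPGCs, 844 to 882 in V6.5 iPGCs, 1446 to 1493 in Oct4-Gfp somatic cells, 1405 to 1471 in V6.5 somatic cells and 839 to 933 in ESCs. Of 15 fibroblast markers tested, 14 were lower in iPGCs in each line and 0 higher. Their sum, over 18 genes, was 783 to 1111 in Oct4-Gfp iPGCs, against 17647 to 19301 in Oct4-Gfp somatic cells. In V6.5 iPGCs against ESCs, the changes of the fibroblast markers called were 1.49 ± 0.24 (Col1a1), 1.19 ± 0.21 (Pdgfra), -1.78 ± 0.42 (S100a4), -1.36 ± 0.42 (Col1a2) and -1.19 ± 0.26 (Thy1), with Lox also lower; Fap was within background in every group. Cardiac markers counted 10 tested, of which 2 were higher (Tnni3 and Myh6) and 6 lower in iPGCs of each line. Of 10 skeletal muscle markers 3 were tested, with Myh3 higher and Tnni2 and Tnnt3 lower in iPGCs of each line. Cardiac troponin T, Tnnt2, was lower in Oct4-Gfp iPGCs (-5.67 ± 0.38) and in V6.5 iPGCs (-4.93 ± 0.38), and the cardiac factor Nkx2-5 was within background in every group. Of 11 mesoderm markers, 0 were higher and 11 lower in Oct4-Gfp iPGCs. In V6.5 iPGCs 1 was higher (Eomes, 1.55 ± 0.17) and 8 lower. The paper names Tbx20, Hand1 and Msx1 of these markers as examples of a cluster found on these same arrays. It describes that cluster as repressed in iPGCs and in ESCs, though not in somatic cells, so their calls are not independent. Against ESCs, 7 of the 11 mesoderm markers were higher and 1 was lower in V6.5 iPGCs, with a median change of 2.10, where the median of the 10 genes was -0.48. The part of each cell type in the values of the 10 genes was not tested.

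The labels were checked against markers of their own cell types. All 8 ESC markers and all 9 PGC markers tested were called higher in iPGCs than in the somatic cells of their line, and 6 of the 9 PGC markers were higher in V6.5 iPGCs than in ESCs. Kit and Pou5f1 (Oct4) are among these markers. The cells were sorted on Kit in both lines and on a reporter of Pou5f1 in the Oct4-Gfp line, so that these values were set by the sort. The paper names the PGC markers Rhox6 and Rhox9 as examples of a cluster found on these same arrays. It describes that cluster as enriched in iPGCs and not in ESCs or somatic cells, so their calls are not independent. Summed ESC marker signal was 37597 to 40894 in Oct4-Gfp iPGCs, 33755 to 36294 in V6.5 iPGCs, 1706 to 4168 in Oct4-Gfp somatic cells, 934 to 1293 in V6.5 somatic cells and 49817 to 50551 in ESCs. The ESC marker Tdgf1 read 392 and 2683 in Oct4-Gfp somatic cells. Without Tdgf1 the sum was 1314 to 1485 in Oct4-Gfp and 858 to 1059 in V6.5 somatic cells. Log2 values of the 2 arrays of a group correlated across probe sets at 0.971 to 0.988.

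The 10 genes were not equally alike in their pattern over the 10 arrays. Pearson's r of each gene's log2 values with the mean standardized profile of the other 9 ran from 0.645 (Cnn1) to 0.989 (Tagln). The genes with the profile nearest to the mean of all 10 were Mprip (r = 0.998), which encodes a protein that targets myosin phosphatase to stress fibres, Dbn1 (0.995), the actin-binding protein drebrin, Ncs1 (0.994), a neuronal calcium sensor, Creb3l1 (0.994), a membrane-bound transcription factor, and Mapkapk2 (0.993), a kinase downstream of p38 that acts on Hsp27. These r are over arrays that fall into groups, and are given as a description. Mprip averaged 930 ± 9.62 in Oct4-Gfp iPGCs and 1128 ± 34.2 in V6.5 iPGCs, against 2013 ± 173 in Oct4-Gfp somatic cells, 2286 ± 87.5 in V6.5 somatic cells and 1360 ± 38.1 in ESCs (SD, n = 2 each). Dbn1 averaged 79.1 ± 28.4 in Oct4-Gfp iPGCs and 151 ± 25.3 in V6.5 iPGCs, against 873 ± 303 in Oct4-Gfp somatic cells, 1062 ± 142 in V6.5 somatic cells and 227 ± 43.3 in ESCs. Both genes had the order seen in Tagln and Flnc, with Oct4-Gfp iPGCs lowest, then V6.5 iPGCs, ESCs and the somatic cells.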

How the data were processed

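RNA of sorted cells was amplified, labelled and hybridized to 10 arrays, 2 in each of 5 groups given by the labels. The deposited intensity values are linear; per the submitters' notes the authors used MAS5, and the 2%-trimmed mean of each array is 500. The paper's methods name D-Chip model-based expression instead, and those values were not used here. Scanner files and detection calls were not used, and the number of arrays limits the precision.

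The log2 of the signal plus 14.8 (the 25th percentile of all signals) was taken, and 64 control probe sets were left out. A probe set was tested if it exceeded the median of its array on 2 or more arrays (26368 of 45101). Symbols came from the platform annotation, updated by Entrez number: 34958 probe sets have 1 symbol, 932 several and 9211 none, and 34754 of those with 1 matched the RefSeq table. A gene was represented by its tested probe set with the highest mean. Background was the 95th percentile of 43 olfactory receptor probe sets on each array; a group below it on both arrays gave a bound, set against that background. A model with 5 groups was fitted in limma 3.58.1 (R 4.3.3), with 5 residual degrees of freedom and 2.92 from the prior, and tested on simulated data. Figures used matplotlib 3.10.9 in Python 3.11.15. Named were all members, up to 4 genes of each list past the threshold with the largest changes in the comparison described, and the 5 genes nearest to the members' mean profile; relatives were added after their values were seen. Srf in the V6.5 line, Myh11, Kcnmb1 and Nkx2-5 were named as defining genes. Members, lists and tests were chosen with earlier results of these data known. Alternatives were the offset, a floor, filters, quantile normalization, limma-trend, a replicate block, averaged lines, the mean over probe sets, and leaving out each array. Promoters came from the RefSeq GRCm38.p6 table. The results of 1 signalling gene list are not reported here.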

Additional observations from a re-analysis of the deposited data

How the results depend on the processing

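In all 19 alternatives all 10 genes were called lower in iPGCs than in somatic cells. This held in both lines, except that averaging the lines tested only their pooled difference. In V6.5 somatic cells, or in both somatic groups pooled when the lines were averaged, 7 or 8 were called higher than in ESCs. In V6.5 iPGCs against ESCs, the count of members higher was 0 without the low-signal filter, 2 with quantile normalization, 2 with limma-trend and 0 to 1 when an array was left out; the count lower was 6 with the lines averaged, and 5543 of all genes were then called, against 1551 to 3694 when an array was left out. With the lines averaged Acta2 turned to -0.20. The line difference called 5 genes with a floor, 6 with limma-trend, 0 without the filter, with the background filter, with quantile normalization or with the replicate block, and 0 to 1 when an array was left out. Between iPGC lines, limma-trend called 432 genes (3 members lower) and the mean over probe sets 56 (1 member lower). Between somatic lines, calls over all genes were 14 with a doubled offset, 1 without the filter, 1 with the background filter, 32 with limma-trend, 3 with the replicate block, 18 with the mean over probe sets and 0 to 9 when an array was left out. Values near 0 changed sign. In the line difference, Fhl3 was 0.0013 with a doubled offset and 0.26 with quantile normalization, and Acta2 was 0.26 with the mean over probe sets; leaving out an array gave -0.70 to 0.064 (Acta2), -0.23 to 0.11 (Cnn2), -0.0072 to 0.77 (Myl9) and -0.44 to 0.30 (Fhl3). Between iPGC lines Tpm2 was -0.080 with the mean over probe sets and -0.037 to 0.22 when an array was left out. Between somatic lines Parvb was -0.12 with the mean over probe sets and -0.11 to 0.30 when an array was left out, and the ranges were -0.28 to 0.055 (Cnn2) and -0.053 to 0.14 (Tpm1). The causes were not tested. Same-numbered arrays correlated in their deviations at -0.292 to 0.262 over 10 pairs of groups, with 2 above 0.1, so the numbers were not taken to pair arrays; the replicate block changed no call of a member. Signals near background give bounds only.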
